A study of Mus musculus with 92 samples.

Results

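Single cells of the GMP gate (by common usage the granulocyte-monocyte progenitor) were compared between the states that the authors' annotation names Mono and Gran-1. The annotation placed 24 cells of this gate in Mono and 6 in Gran-1, which together are 30 of the 45 GMP cells and 30 of the 92 cells of the series. Every cell came from the bone marrow of C57BL/6 mice carrying Gfi1-R412X on both alleles (genotype Gfi1-R412X/R412X). Marrow was enriched for CD117-positive cells before the sort, cells were captured on a Fluidigm C1 chip, and cDNA made with a SMARTer kit was sequenced. There were 0 wild type cells, so both states carry the mutation and its effect was not analysed here. The labels give neither the age of the mice nor how many contributed cells, and the sources used here do not say how the states were assigned. Since Mono and Gran-1 cells share a gate, a date code and a genotype, the comparison asks which transcripts part the monocyte-named cells from the granulocyte-named cells under these shared conditions.

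Granulocytes and monocytes arise from a shared myeloid progenitor, and the choice between them is governed by transcription factors that oppose each other. IRF8 drives monocyte and dendritic cell development and restrains neutrophil production, whereas GFI1 is a DNA-binding repressor needed for neutrophil formation and represses monocyte genes. Developing neutrophils fill primary (azurophil) granules with myeloperoxidase and elastase before they make the proteins of the later granules and the abundant cytosolic pair S100A8 and S100A9.

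Values are TPM, a level scaled by transcript length and to the same total in each cell, and differences are Mono minus Gran-1 in the mean of log2(TPM + 1), with 1 TPM added to every value. On this scale 1 is a 2-fold difference, and the difference of a gene near 0 in one state depends on the added 1. The GMP cells are 1 set without a replicate, cells are not replicates, and the states were probably drawn from these same expression values. No p-value was therefore computed, and each SD is the spread of cells. Mono cells had 3700, 5624 and 6612 genes above 0 at the lowest, median and highest, and Gran-1 cells 2775, 5733 and 5923. Gran-1 cell 25 held the lowest number, 2775, while the next Gran-1 cell had 5296, and leading results are also given without cell 25. A gene at 0 in a cell can be expressed and missed, and the read depth of the cells is unknown.

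The state names were checked against the markers Irf8, Ly86 and F13a1 for Mono and S100a8 for Gran-1. Of the 24 Mono cells, 13 had all 3 monocyte markers above the highest Gran-1 cell, 9 had 2 of them, and 2 cells had 0. Those 2, Mono cells 1 and 33, had Irf8 and Ly86 both at 0 TPM and F13a1 at 0.16 and 1.37 TPM. They were also the 2 Mono cells highest in Gfi1, at 341 and 337 TPM, and cell 33 was the Mono cell highest in Pglyrp1 (2944 TPM), Cd63 (3948 TPM) and Anxa1 (5098 TPM). Their S100a8 was low, at 16.5 and 55.3 TPM, below every Gran-1 cell, so these cells lacked the markers of both names. S100a8 was at least 304 TPM in all 6 Gran-1 cells, and 6 of the 24 Mono cells reached that level too. Mono cell 28, for example, held 10186 TPM of S100a8 beside 254 TPM of Irf8 and 42.6 TPM of Ly86, and Mono cell 47 held 4766 TPM of S100a8 beside 276 TPM of Ly86. No doublet caller was run, and whether such cells hold RNA of more than 1 cell was not tested.

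The stretches upstream of 4 leading genes are shown because they let a reader set the letters of Irf8 and Cfp, high in Mono, beside those of the neighbouring pair S100a8 and S100a9, high in Gran-1. Each is the 250 bases before the RefSeq start, 5′ to 3′ in the direction of the gene, in build GRCm38.p6. The Irf8 stretch lies at chr8:120736108-120736357 on the plus strand and that of Cfp at chrX:20931556-20931805 on the minus strand. The S100a8 stretch lies at chr3:90668821-90669070 on the plus strand and that of S100a9 at chr3:90695722-90695971 on the minus strand. Capitals mark letters that match a searched motif.
Irf8: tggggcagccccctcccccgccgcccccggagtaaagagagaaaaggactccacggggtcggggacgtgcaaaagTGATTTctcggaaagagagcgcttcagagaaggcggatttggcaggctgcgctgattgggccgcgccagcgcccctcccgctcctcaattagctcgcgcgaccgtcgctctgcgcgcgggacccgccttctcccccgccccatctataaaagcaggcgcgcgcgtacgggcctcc
Cfp: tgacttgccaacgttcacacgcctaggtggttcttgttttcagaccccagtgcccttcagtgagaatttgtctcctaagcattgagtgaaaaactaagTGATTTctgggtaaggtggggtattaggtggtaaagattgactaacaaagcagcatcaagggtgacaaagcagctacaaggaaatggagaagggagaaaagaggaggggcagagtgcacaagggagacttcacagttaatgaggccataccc
S100a8: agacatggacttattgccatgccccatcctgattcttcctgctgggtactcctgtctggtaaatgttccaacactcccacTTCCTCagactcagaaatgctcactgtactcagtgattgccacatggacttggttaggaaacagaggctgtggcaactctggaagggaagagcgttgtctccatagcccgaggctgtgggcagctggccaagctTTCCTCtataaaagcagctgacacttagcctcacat
S100a9: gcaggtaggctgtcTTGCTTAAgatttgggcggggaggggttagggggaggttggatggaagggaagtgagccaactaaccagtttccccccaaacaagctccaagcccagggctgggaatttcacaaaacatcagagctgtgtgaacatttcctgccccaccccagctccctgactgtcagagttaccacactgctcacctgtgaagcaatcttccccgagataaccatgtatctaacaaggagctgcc
The motifs, searched on both strands, were AAATCA (the core bound by GFI1), GAGGAA (the core bound by PU.1, the product of Spi1) and TTNNGCAA (C/EBP factors), beside a longer composite motif for PU.1 together with an IRF factor. The capitals in Irf8 and Cfp are AAATCA read from the other strand, beginning 175 and 152 bases before the start, and 12.4% of all 32851 windows of this length hold that motif. The capitals in S100a8 are GAGGAA on the other strand, 170 and 36 bases before the start, a motif in 23.3% of windows. Those in S100a9 are TTNNGCAA on the other strand, 236 bases before the start, a motif in 9.56% of windows. The composite motif, in 2.3% of windows, had no match in the windows of the 15 genes looked up that the table holds, and the windows of Ly86, Lyz2 and Mrgpra2b held none of the 4 motifs. AAATCA also stood in the window of Anxa1, and GAGGAA in a window of F13a1 and of Ctss, so matches were found on both sides of the comparison. A match describes letters and does not show that a factor binds there.

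Mono cells were set apart from Gran-1 cells by Ly86, Irf8 and F13a1, genes of the monocyte lineage, and by Cfp and Lyz2. Lyz2 was not particular to Mono, since the 2 cells of this gate named Gran-2 held 280 and 939 TPM. Cfp was at most 1.19 TPM in those 2 cells. In the other gate, CD11b+ GMP-P, Cfp was above 0 in 14 of 20 Gran-2 cells. Gran-1 cells were higher on average in genes of the later neutrophil, among them S100a8, S100a9 and 1100001G20Rik. Mrgpra2b was also higher in Gran-1. It was above 0 in only 11 of 24 Mono cells, so it passed the detection filter given next through Gran-1 alone. Mpo and Elane, the primary granule genes with the highest means in both states, differed little. Of 6425 genes with a value above 0 in 50% or more of the Mono cells, the Gran-1 cells or both, 1490 (23.2%) were at least 2-fold higher in Mono and 1043 (16.2%) at least 2-fold higher in Gran-1, and the median difference of all was 0.11. This split rests on cell 25: without it 1048 genes were higher in Mono and 1494 in Gran-1, with a median of -0.11. The spread among cells was wide, since the median over genes of the SD within states was 2.42, more than the size rule itself. A gene that passed the filter through 1 state only was above 0 in under 50% of the cells of the other. The filter thus favoured a difference towards the state it passed through. This held for 698 genes through Mono, of which 422 were at least 2-fold higher there. It also held for 1018 genes through Gran-1, of which 372 were at least 2-fold higher there.

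**Figure D1:**
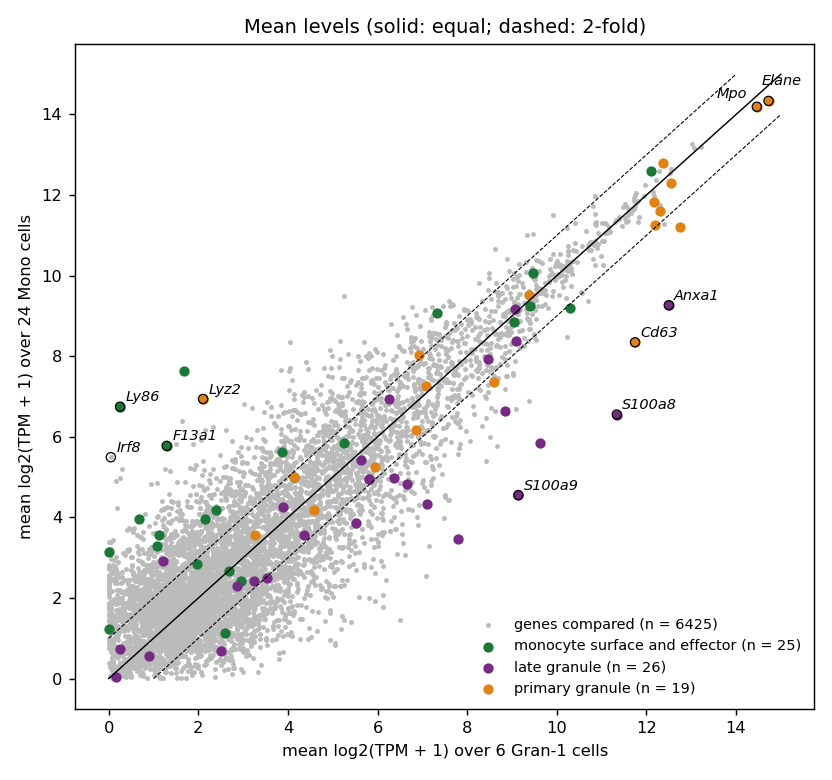
Mean log2(TPM + 1) over the 24 Mono cells (vertical) against the 6 Gran-1 cells (horizontal) for the 6425 genes compared, each point 1 gene. Coloured points are the members of 3 gene lists, outlined points carry names, the solid line marks equal means and the dashed lines a 2-fold difference. Ly86, Irf8 and Lyz2 lie far above the lines and S100a8 and S100a9 far below, while Mpo and Elane lie at the top close to the solid line.

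No gene parted the 2 states in every cell: 0 genes (0%) had all Mono cells above all Gran-1 cells, and 0 (0%) the reverse. A softer measure, added after the values were seen, was the share of the 144 pairs of 1 Mono and 1 Gran-1 cell in which the Mono cell is higher, with ties counted to each side equally. Mono was higher in at least 90% of pairs for 8 genes (0.125% of those compared) and Gran-1 for 13 (0.202%). The 8 Mono genes were Ly6e, Irf8, Ly86, Frat1, Lyz2, Rpl24, Pa2g4 and Psat1. The Gran-1 genes included S100a9, Anxa1, March7, Cd63, Syne1, Nkg7, Sirt2, Arsb, Tmed5, Alas1, Lta4h and Mbnl3. Without Mono cells 1 and 33, an omission chosen after their values were seen and defined by Irf8 and Ly86, those 2 genes no longer overlapped in the remaining Mono cells. Cd63 then also had no overlap, with 2411 TPM in the highest remaining Mono cell and 2470 TPM in the lowest Gran-1 cell. Cells 1 and 33 held 3398 and 3948 TPM of Cd63, and the other 22 Mono cells already lay below the lowest Gran-1 cell. This therefore follows from leaving those cells out.

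Irf8, the monocyte-lineage regulator, was above 0 in 22 of 24 Mono cells (91.7%, exact 95% interval 73 to 99) and in 1 of 6 Gran-1 cells (16.7%, 0.421 to 64.1). Its level in Mono was 0, 100 and 318 TPM at the lowest, median and highest cell, and in Gran-1 the highest cell held 0.22 TPM. The groups overlapped only at the 2 Mono cells at 0, and the mean difference was 5.45 (Mono 5.49 ± 2.63, Gran-1 0.05 ± 0.12). Klf4, a factor of monocyte maturation, was less clear, with a difference of 2.30. It reached 403 TPM in Mono with a median of 55.8, while 3 of 6 Gran-1 cells were at 0 and the highest had 175 TPM. Of the 10 monocyte transcription factors compared, those 2 were at least 2-fold higher in Mono, a share below the 23.2% of all genes, and 0 in Gran-1, with a list median of 0.30, or -0.24 without cell 25. Spi1, the gene for PU.1, stood at -0.24.

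Ly86 encodes MD-1, the partner of a Toll-like receptor relative on the cell surface, and showed the largest difference among the genes named by rule, 6.50. It was above 0 in 22 Mono cells, with 0, 259 and 2022 TPM at the lowest, median and highest, against 0, 0 and 0.69 TPM in Gran-1. The 22 Mono cells above 0 all lay above every Gran-1 cell, and Mono was higher in 94.4% of pairs.

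F13a1 encodes the catalytic subunit of coagulation factor XIII, a transcript typical of monocytes. Mono cells held 0, 85.5 and 1301 TPM and Gran-1 cells 0, 0.47 and 36.5 TPM, a difference of 4.48. The groups overlapped, since 11 of the Mono cells lay at or below Gran-1 cell 37, which held the 36.5 TPM. Cfp, the gene for properdin, which stabilises the alternative complement pathway, was above 0 in 19 Mono cells with a median of 52.8 TPM and a highest cell of 2307 TPM. Gran-1 reached 1.28 TPM, and the difference was 4.92.

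Lysozyme transcripts were also higher in Mono. Lyz2 held 0, 186 and 1940 TPM in Mono and 0, 2.39 and 32 TPM in Gran-1, with 19 of 24 Mono cells above every Gran-1 cell and a difference of 4.84. Lyz1, its near-identical neighbour, differed by 3.29, and how reads were divided between the 2 copies is uncertain. Ctss, the gene for cathepsin S, was above 0 in 15 of 24 Mono cells (62.5%, 40.6 to 81.2) with a highest cell of 513 TPM. It was listed at 0 in all 6 Gran-1 cells, a count that still allows a share of up to 50% (exact upper bound 45.9%), so no fold is given.

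Receptors that mark the monocyte lineage differed less than these effectors. Csf1r, the receptor for the monocyte growth factor M-CSF, was above 0 in 18 Mono cells with a median of 8.03 TPM and a highest of 299.9 TPM, and in Gran-1 it was at 57.9 TPM in cell 29 and at most 0.52 TPM in the others. The difference was 2.21, and 6 Mono cells lay above cell 29. Ccr2, the chemokine receptor of monocytes, differed by 2.44 but was at 0 in 11 Mono cells. In the 6 Mono cells nearest to the Gran-1 cells in genes detected, the Ccr2 difference was -0.05, so its direction depends on which Mono cells are used.

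Across the whole list of monocyte surface and effector genes, 13 of 25 compared members were at least 2-fold higher in Mono and 2, Apoe (-1.47) and Clec12a (-1.10), in Gran-1, Apoe standing at -0.75 without Gran-1 cell 29 and at 0.19 on the ratio of mean TPM. The list median was 1.22 against 0.11 for all genes, of which 23.2% were at least 2-fold higher in Mono and 16.2% in Gran-1. Without cell 25 the counts were 11 and 4 and the median 0.50, and without Mono cells 1 and 33 they were 15 and 2 with a median of 1.33. Ccl9, a chemokine of myeloid cells, stood at 1.83, and Ly6c2 (0.50), a surface marker of inflammatory monocytes, and Cst3 (0.60), the gene for cystatin C, lay within 2-fold.

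**Figure D2:**
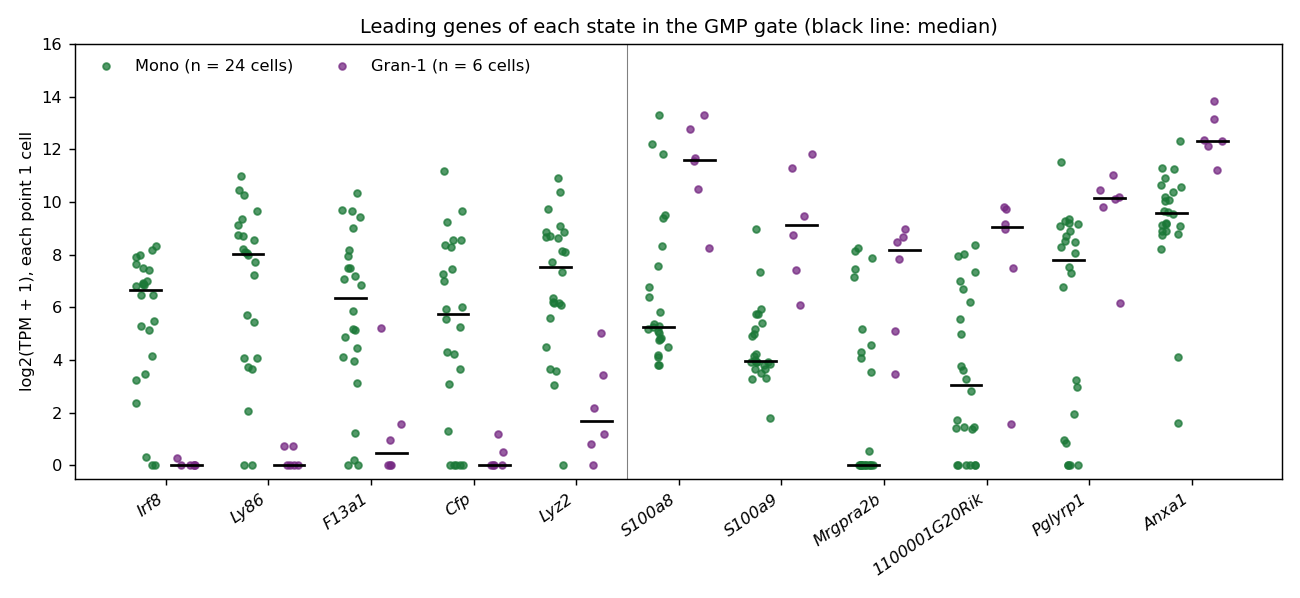
Level of 11 leading genes in each cell, as log2(TPM + 1), with 24 Mono cells in green and 6 Gran-1 cells in purple and the median as a black line. The 5 genes on the left are those higher in Mono, where most Gran-1 cells lie at or near 0 for Irf8, Ly86 and Cfp, and the 6 on the right are those higher in Gran-1, where S100a8 reaches the same height in a few Mono cells.

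S100a8 and S100a9 encode the 2 subunits of calprotectin, the main cytosolic protein complex of neutrophils. S100a8 was 13, 37.7 and 10186 TPM in Mono at the lowest, median and highest cell and 304, 3123 and 10105 TPM in Gran-1, a difference of -4.78. All Gran-1 cells lay above the Mono median, but the highest cell of all was a Mono cell. S100a9 separated the cells better: Mono held 2.53, 14.7 and 497 TPM and Gran-1 66.5, 571 and 3584 TPM, a difference of -4.59. In 97.2% of cell pairs the Gran-1 cell had more S100a9, and 22 of 24 Mono cells lay below the lowest Gran-1 cell.

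Other genes of the later granules and the maturing neutrophil followed. 1100001G20Rik was higher in 4 of 6 Gran-1 cells (502 to 895 TPM) than in every Mono cell, the highest of which held 330 TPM, and it was lower in cells 29 (181 TPM) and 25 (1.95 TPM). Its difference was -4.33. Pglyrp1, a secreted protein that binds bacterial peptidoglycan, held 0, 224 and 2944 TPM in Mono and 70.3, 1139 and 2108 TPM in Gran-1, a difference of -3.79 with overlap across the range. Lcn2, the siderophore-binding protein of neutrophil granules, differed by -2.75, with 19 Mono cells and all 6 Gran-1 cells above 0.

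Anxa1, the gene for annexin A1, an abundant phospholipid-binding protein of neutrophils, was high in both states. Mono cells held 2.07, 765 and 5098 TPM and Gran-1 cells 2392, 5171 and 14642 TPM, and 21 Mono cells lay below the lowest Gran-1 cell. The difference was -3.23, and Gran-1 was higher in 96.5% of pairs. Hdc, the enzyme that makes histamine, differed by -2.19, with Gran-1 between 79.7 and 1318 TPM and Mono between 0 and 1514 TPM.

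Of 26 late granule genes compared, 12 were at least 2-fold higher in Gran-1 and 1, Mmp8, in Mono (1.71, or 2.69 without cell 40 and 0.04 in the matched Mono cells), with a median of -0.85, or 14 and 1 with a median of -1.23 without cell 25. Over all genes compared, 16.2% were at least 2-fold higher in Gran-1 and 23.2% in Mono. Some members of the late granule list differed less than the leading ones: Camp stood at -1.04 (-0.92 without cell 12), Ngp at -0.82 and Ltf at -0.34. Chil3 at -0.57 changed to 0.35 without cell 37. Summed over the list, late granule transcripts made up 0.472% of all TPM in the median Mono cell (lowest 0.243, highest 2.04) and 1.67% in Gran-1 (1.02 to 2.95), so the ranges overlapped.

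Transcripts of the primary granule enzymes were abundant in both states, and their ranges overlapped. Elane, neutrophil elastase, held 7884, 21990 and 36493 TPM in Mono and 13150, 29917 and 37809 TPM in Gran-1, a difference of -0.39. Mpo, myeloperoxidase, held 7105, 21142 and 31240 TPM in Mono and 14032, 24235 and 27948 TPM in Gran-1, a difference of -0.27. Prtn3 (-0.25) and Ctsg (-0.34), the genes for proteinase 3 and cathepsin G, were named after their values were seen and likewise lay within 2-fold. These 3 proteases and the peroxidase gave differences smaller than the spread of their cells, whose SD was between 0.37 and 0.80.

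Some other granule genes, among them Cd63 and Nkg7, differed more than the proteases. Cd63, a tetraspanin of granule and lysosome membranes, held 0.74, 754 and 3948 TPM in Mono and 2470, 3611 and 4573 TPM in Gran-1, a difference of -3.40, and 22 Mono cells lay below the lowest Gran-1 cell. Nkg7, a granule membrane protein, differed by -1.54, with 17 Mono cells below the lowest Gran-1 cell. Srgn, the granule proteoglycan serglycin, differed by -0.69, and Ms4a3 by -0.92, both within 2-fold. Of 19 primary granule genes compared, 3 (Cd63, Nkg7 and Igsf6) were at least 2-fold higher in Gran-1, a share close to the 16.2% of all genes, 2 (Lyz2 and Hexa) in Mono, and 14 lay within 2-fold. The calls of Igsf6 (-1.23) and Hexa (1.09) rest on single cells, since Igsf6 stood at -0.81 without cell 13 and at -2.87 without cell 25, and Hexa at -0.29 without cell 25. The list made up 7.22% of all TPM in the median Mono cell and 9.36% in the median Gran-1 cell, and without cell 25 its counts were 6 in Gran-1 and 1 in Mono.

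**Figure D3:**
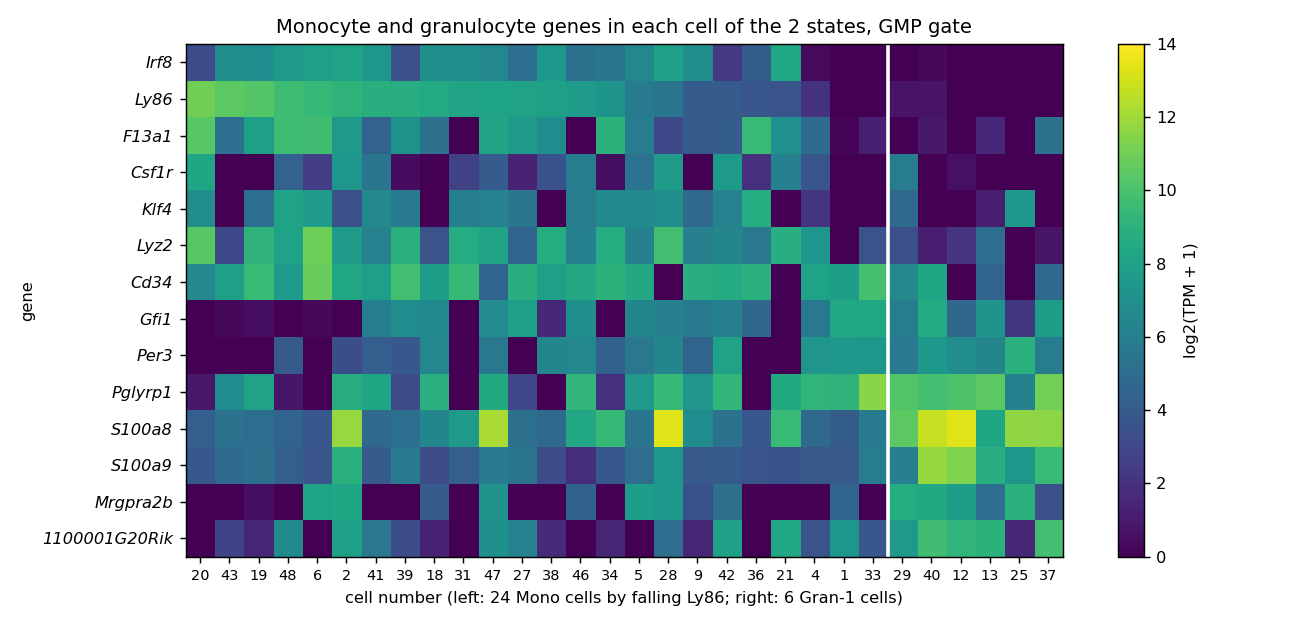
Level of 14 monocyte and granulocyte genes in each of the 30 cells, as log2(TPM + 1), with 24 Mono cells to the left of the white line in order of Ly86 and 6 Gran-1 cells to its right, each column 1 numbered cell. Mono cells 1 and 33, next to the line, are dark for Irf8 and Ly86 and bright for Gfi1 and Per3, and Mono cells 2, 28 and 47 are bright for S100a8.

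Gfi1, whose product carries the mutation in all cells, was above 0 in all 6 Gran-1 cells (3.88, 106 and 391 TPM) and in 18 of 24 Mono cells (0, 51.7 and 341 TPM). Of the Mono cells 10 lay below the lowest Gran-1 cell, and 1 Gran-1 cell lay above every Mono cell. The difference was -2.12, or -0.87 between medians over cells. Since the mutation is a stop codon in the coding sequence, a TPM of Gfi1 does not check the genotype. Per3, a circadian clock gene placed in the granulocyte transcription factor list, differed by -3.09, with Gran-1 between 55.8 and 483 TPM and 16 Mono cells below the lowest of them. Myb, a progenitor factor, differed by -1.44, and Runx1 by -1.85, or -0.85 without cell 25.

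Of the C/EBP family, whose factors drive granulocyte maturation, Cebpe (-0.20), Cebpa (-0.23) and Cebpd (0.88) lay within 2-fold. For Cebpd, 10 of 24 Mono cells lay above every Gran-1 cell, while the medians were 1.88 TPM in Mono and 2.39 TPM in Gran-1. Cebpe, Cebpa, Spi1 and Kit (0.53), the stem cell factor receptor, changed sign among the alternative settings. Of 11 granulocyte transcription factors compared, 4 were at least 2-fold higher in Gran-1 (Per3, Gfi1, Runx1 and Myb) and 1, Cux1, in Mono (1.41, or 0.90 without cell 25 or without cell 40, and 2.30 without cell 29). Their median was -0.23, or -0.81 without cell 25. Over all genes compared, 16.2% were at least 2-fold higher in Gran-1. Of 26 genes in the GFI1 target list 15 were compared. Irf8, Klf4, Csf1r and Ccr2 were at least 2-fold higher in Mono, a share of 4 of 15 that is close to the 23.2% of all genes, and Gfi1 itself and Hoxa9 (-1.66, or -1.005 without cell 37) in Gran-1, with a median of -0.03, which became 0.43 without cell 29.

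Within the 24 Mono cells, Irf8 and Gfi1 gave a Pearson correlation of -0.51 (Spearman -0.51) and Per3 and Gfi1 one of 0.61 (0.59) on the log2 scale. Without cells 1 and 33 the first became -0.35 (-0.36) and the second 0.55 (0.48) over 22 cells. Those pairs were picked from a longer set that was computed. In that set Ly86 and Gfi1 gave -0.54 (-0.42), Irf8 and S100a8 0.39 (0.32) and Irf8 and F13a1 0.31 (0.18). Without cells 1 and 33 these became -0.39 (-0.25), 0.37 (0.30) and -0.004 (-0.02). These are descriptions of cells from 1 set that share their processing and differ in how many genes were detected.

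Among cytokine receptors, Csf3r, the receptor for the neutrophil growth factor G-CSF, differed by -1.65, or by -2.76 without cell 25, where it was at 0. Mono held 0, 18.4 and 213 TPM and Gran-1 0, 136 and 290.2 TPM, so the groups overlapped. Il2rg, the shared gamma chain of several interleukin receptors, differed by -3.16, with 5 of 6 Gran-1 cells above the Mono median of 0.63 TPM. In all, 6 of 17 receptors compared were at least 2-fold higher in Gran-1, against 16.2% of all genes, and 3 in Mono, with a median of -0.33. Without cell 40 the counts were 3 in Gran-1 and 4 in Mono (median -0.43), and without cell 25 they were 7 and 3 (-0.54). Mrgpra2b, a G protein-coupled receptor, was above 0 in 11 of 24 Mono cells (45.8%, 25.6 to 67.2) and in all 6 Gran-1 cells (10.1, 296 and 498 TPM), a difference of -4.54. Its close relative Mrgpra2a was above 0 in 1 Mono cell and 5 Gran-1 cells (-3.05), and reads may have been divided between the 2.

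Lysosomal genes split in both directions, with a median of 0.56. At least 2-fold higher were 9 of 25 in Mono and 6 in Gran-1, against 23.2% and 16.2% of all genes. Beside Ctss, those higher in Mono included Npc2 (2.76), a sterol carrier, and Ctsh (2.27), a cathepsin. Npc2 was 3.69, 175 and 486 TPM in Mono and 0, 53.2 and 179 TPM in Gran-1, with 11 Mono cells above all Gran-1 cells. Higher in Gran-1 were Arsb (-3.88), an arylsulfatase, Cd63 and Neu1 (-2.63), a sialidase. Arsb was 0, 8.02 and 148 TPM in Mono and 25.5, 158 and 577 TPM in Gran-1, where 3 cells exceeded every Mono cell. The list's median changed sign to -0.41 without cell 25, to -0.15 when medians over cells were used and to -0.02 on the ratio of mean TPM, so no direction is given to the list as a whole.

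Some of the largest differences fell outside lineage genes. Psat1, an enzyme of serine synthesis, was above 0 in all 24 Mono cells (0.24, 112 and 505 TPM) and in 3 Gran-1 cells, none above 24 TPM, a difference of 4.33. Frat1, a binding partner of the kinase GSK3, was at most 0.49 TPM in Gran-1 and 0, 48.5 and 232 TPM in Mono, with 22 Mono cells above every Gran-1 cell and a difference of 4.73. Akr1b3, aldose reductase, differed by 4.76. Psmc4, a proteasome ATPase, was above 37 TPM in every Mono cell (median 359.8) and reached 306 TPM in Gran-1, with a median of 23.3 TPM there and a difference of 4.30. Nadk (3.93), Pak1ip1 (3.93), Ufsp2 (4.01) and Hsd17b10 (3.91) completed the rule's highest genes that belong to no lineage list, apart from Rps27.

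Ly6e, a GPI-anchored surface protein, was chosen after its values were seen because it gave the highest pair share of all genes. Mono held 634, 1604 and 3720 TPM and Gran-1 107, 531 and 954 TPM, with no cell at 0 and 22 Mono cells above every Gran-1 cell. Mono was higher in 97.9% of pairs and the difference was 2.04. Pa2g4 (2.01) and Rpl24 (0.63), also named by their pair share, were above 0 in every cell, and Rpl24 shows that a difference below 2-fold can part most cells where the spread is small (Mono 10.31 ± 0.42, Gran-1 9.68 ± 0.20). Cd34, a sialomucin of progenitor cells, held 0, 339 and 1720 TPM in Mono and 0, 24.8 and 310 TPM in Gran-1, a difference of 3.67.

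On the Gran-1 side, Sirt2 (-4.34), an NAD-dependent deacetylase, and March7 (-4.18), a ubiquitin ligase, were above 0 in all 6 Gran-1 cells, and in 12 and 8 Mono cells. March7 was 20.8 TPM at most in Mono and 8, 22.8 and 293 TPM in Gran-1. Orc5 (-4.22), a subunit of the origin recognition complex, was above 0 in 5 of 6 Gran-1 cells and 5 of 24 Mono cells. Otud6b (-4.05), Mctp1 (-4.02), Foxred1 (-4.01) and Chst13 (-3.79) were also among the lowest by the rule. Syne1 (-3.32), Tmed5 (-1.70), Alas1 (-1.74), Lta4h (-1.31) and Mbnl3 (-1.37) were added for their pair shares after their values were seen. Alas1, the entry enzyme of heme synthesis, was 12.9, 449 and 1441 TPM in Mono and 545, 1249 and 2014 TPM in Gran-1.

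Of 12 interferon response genes compared, 5 were at least 2-fold higher in Gran-1 and 0 in Mono, against 16.2% and 23.2% of all genes. The list median was -0.88. Casp4 (-3.97), an inflammatory caspase, was above 0 in 4 of 6 Gran-1 cells and 7 of 24 Mono cells, and the highest cell, at 489 TPM, was a Mono cell. Rnf125 (-3.81), Ifi27 (-3.54) and Ifi47 (-2.70) were each above 0 in 5 of 6 Gran-1 cells, and in 12, 8 and 17 Mono cells. The median was -1.55 without cell 25, -0.03 in the 6 Mono cells nearest in genes detected, 0.04 on the ratio of mean TPM and 0.01 with no detection filter, so the direction of the list depends on these choices.

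Ribosome biogenesis genes kept a positive median in every alternative setting tried, from 0.33 to 0.78, with 0.61 in the comparison as reported. Of 24 compared, 8 were at least 2-fold higher in Mono, among them Polr1b (2.86), a subunit of RNA polymerase I, Nop16 (2.58), Nolc1 (2.57) and Nop58 (2.55), with Nop16 at 1.70 and Nop58 at 1.60 without cell 25. Nop2 (-2.70), Nmd3 (-2.02) and Pes1 (-1.40) were higher in Gran-1. Without cell 37 Nmd3 stood at -3.34 and Pes1 at -2.41, and Pes1 was within 2-fold without cell 13 (-0.73) or cell 40 (-0.83). A share of 8 of 24 is above the 23.2% of all genes, and its members still overlapped widely: Nolc1, for example, reached 123 TPM in Gran-1 and 368 TPM in Mono.

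Cell cycle genes gave no common direction. Over all genes compared, 23.2% were at least 2-fold higher in Mono and 16.2% in Gran-1. Of 33 mitosis genes, 4 were at least 2-fold higher in Mono and 8 in Gran-1 (median -0.06), with Ckap2l (-3.34) and Ube2c (-3.17), an enzyme that marks mitotic proteins for destruction, the lowest. The counts were 1 and 10 without cell 25 (median -0.71) and without cell 29 (-0.73), 3 and 15 in the matched Mono cells (-0.76), and 4 and 5 without cell 13 (0.35). Mki67 (-0.19) and Top2a (-0.61) both changed sign among the alternative settings. Of 28 DNA replication genes 5 were at least 2-fold higher in Mono and 2 in Gran-1, both shares below those of all genes, with a median of 0.50. Without cell 25 this became 2 and 2 with a median of -0.34, and without cell 29 it became 14 and 0 with 0.95. Of 20 immediate early and stress genes 4 were higher in Mono and 5 in Gran-1 (median 0.49), among them Gadd45a (-2.83) and Klf6 (-2.37) in Gran-1. Without cell 25 these counts were 3 and 8 (median -0.43), and without cell 29 they were 10 and 3 of 19 (1.04).

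**Figure D4:**
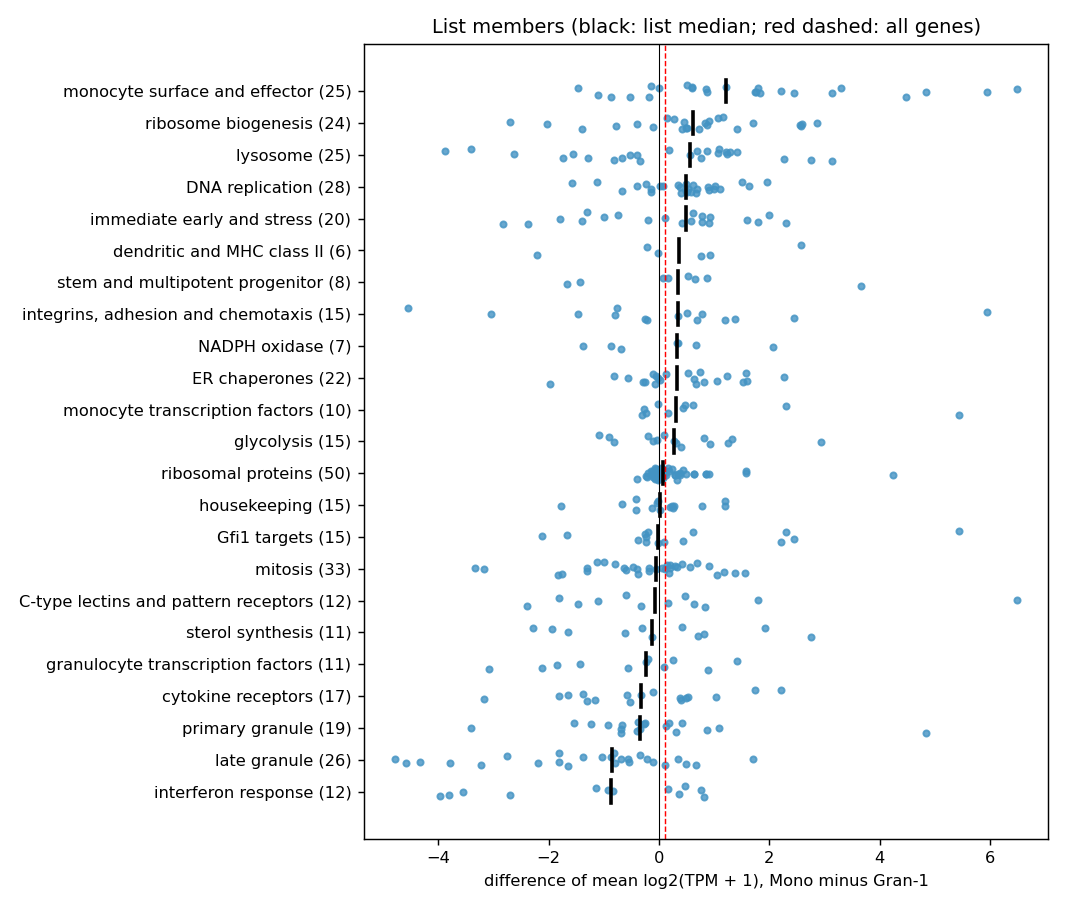
Difference of the mean log2(TPM + 1), Mono minus Gran-1, for each compared member (blue point) of 23 gene lists with at least 3 compared members, ordered by the list median (black bar), with the number compared in brackets. The dashed red line is the median of all genes, 0.11. The monocyte surface and effector list has the highest median, 1.22, and the late granule and interferon lists the lowest, -0.85 and -0.88, and each list holds members on both sides of 0.

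Markers of other cell types were sparse in both states. Of the lists for eosinophils, erythroid cells, megakaryocytes and B cells, 0, 1, 2 and 1 members were detected often enough to compare. Their summed levels reached 273, 364, 1015 and 235 TPM in the highest Mono cell and 128, 277, 1499 and 151 TPM in the highest Gran-1 cell. The 2 megakaryocyte list genes compared were Fli1 and Nfe2. Fli1 alone held 1450 TPM in Gran-1 cell 25, and Nfe2 reached 845 TPM in Mono. Epx, Gata1, Pf4, Itga2b, Cd79a and Cd3e were at 0 in all 30 cells. Of the basophil and mast cell list only Hdc and Srgn were compared, and Fcer1a and Cma1 were at 0 in all 30 cells. Of the T and NK list only Nkg7 was compared. Of the dendritic and MHC class II list 6 genes were compared, with H2-DMa (2.57) at least 2-fold higher in Mono and H2-Ab1 (-2.21) in Gran-1. H2-Ab1 was above 0 in 3 of 6 Gran-1 cells and 6 of 24 Mono cells. Without Gran-1 cell 12, 29 or 37 only 5 genes were compared, and 0 were at least 2-fold higher in Gran-1. Cd74, H2-Aa, Ciita and Itgax were at 0 in all 30 cells. What part RNA of other cells has in the differences was not tested.

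Set beside the other states, Irf8, Ly86 and F13a1 were shared with cMoP and with part of MP (abbreviations as in the annotation). The 3 cMoP cells averaged 6.32 ± 1.44 for Irf8, 8.10 ± 2.38 for Ly86 and 8.08 ± 1.44 for F13a1 in log2(TPM + 1), and the 5 MP cells 2.68 ± 3.03, 5.13 ± 4.70 and 1.24 ± 2.77. In the 5 Multi-Lin cells of the gate Irf8 was at 0 and Ly86 and F13a1 were at most 0.62 and 0.15 TPM. Cd63 gave the 3 cMoP cells 0, 1.09 and 39.8 TPM, below every Gran-1 cell. It lay between 333 and 3277 TPM in the 5 MP cells and between 0 and 3145 TPM in the 5 Multi-Lin cells. Both states reached past the lowest Gran-1 cell (2470 TPM), so high Cd63 was not particular to Gran-1. Mrgpra2b was above 0 in 2 of 3 cMoP cells, at up to 350 TPM, and in 2 of 5 MP cells, at up to 73.3 TPM.

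Gran-1 cells of the other gate, CD11b+ GMP-P, numbered 4 and were likewise at 0 for Irf8 and Ly86 in every cell. F13a1, which reached 36.5 TPM in GMP Gran-1 cells, was in those 4 cells between 0.18 and 302 TPM with a median of 121 TPM. S100a8 there was between 10357 and 32436 TPM, above every GMP Gran-1 cell. The only Mono cell of that gate had Irf8 at 0, Ly86 at 0.52 TPM, F13a1 at 379 TPM and S100a8 at 24498 TPM. Gate, animal, capture and date cannot be told apart between the gates, so these values are set side by side without a test.

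**Figure D5:**
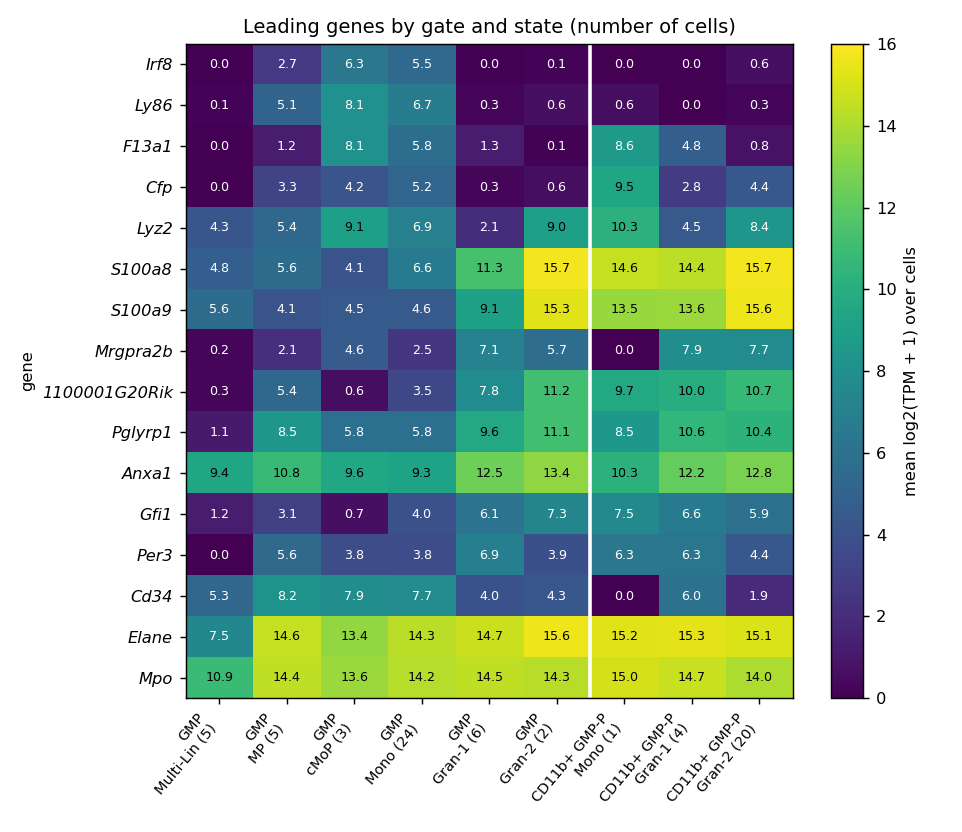
Mean log2(TPM + 1) of 16 genes, printed in each box and shown by colour, in the 6 states of the GMP gate (left of the white line) and in 3 states of the CD11b+ GMP-P gate (right), with the number of cells in brackets. Irf8 and Ly86 are high in cMoP and Mono of the GMP gate and near 0 in every Gran-1 and Gran-2 box, while S100a8 reaches 15.7 in both Gran-2 boxes and is lower in the other boxes drawn. The Myelo states and the Multi-Lin cell of the CD11b+ GMP-P gate are not drawn.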

How the data were processed

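The deposited expression table holds log2 values of 23956 genes in 92 cells, which the authors made as log2(TPM + 1): back-transformed TPM summed to between 1000000 and 1000001 in each of the 30 cells without the Ly6g row, which was added outside the total. Per the submitters' processing notes, Bowtie2, RSEM and the mm9 build were used; the sources used here give no versions. Per the labels, libraries of 96 cells were sequenced as 150 bp paired reads. The second deposited file gives the state of each cell. TPM keeps no depth, so the number of genes above 0 stands in for it. No cell was removed.

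Cells were taken from the GMP gate with the state names Mono and Gran-1. Genes with a value above 0 in 50% or more of the Mono cells, the Gran-1 cells or both were compared by the difference of mean log2(TPM + 1), with a size rule of 1 and no test. The calculation was checked on simulated data with a known added shift, which checks its arithmetic and not how well the size rule performs. Genes named were the 15 highest and 15 lowest among those above 0 in 75% or more of the higher state's cells, up to 6 members of each of 29 gene lists by size of difference, genes with no overlap, and Irf8, Ly86, F13a1, S100a8, S100a9, Gfi1, Elane, Mpo, Kit, Cd34, Csf1r, Csf3r, Cebpe, Klf4 and Lyz2. Further list members and genes chosen by pair share were named after their values were seen. A few genes that the rule names are not reported here. The states compared, the lists and the rule were chosen with earlier results of these data known. The 95% intervals of shares are exact (Clopper-Pearson) and cover counting error alone; a count of 0 cells allows up to 3 cells of the total. Promoter windows came from RefSeq (GRCm38.p6) and no coordinates of mm9 are given; of 16 genes looked up 15 matched. The alternatives were other detection filters, pseudocounts of 10 and 0.1 TPM, the ratio of mean TPM, medians over cells, equal medians of the genes above 0 in every cell, Mono cells matched on genes detected, leaving out each Gran-1 cell and, added after seeing the data, leaving out 2 Mono cells. Python 3.11.15, NumPy 2.4.6, pandas 2.3.3, SciPy 1.17.1 and Matplotlib 3.10.9 were used.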

Additional observations from a re-analysis of the deposited data

Results flagged for a closer look

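Among the 6 Gran-1 cells, single values that stood apart from the rest were flagged by the ratio of Dixon's test. For normally distributed values, chance passes it in about 1 of 20 groups. Values of single cells, many of them at 0, are not so distributed, so that rate does not apply here. Of 98 genes examined, 16 were flagged, a count that is a description only. Cell 25 was lowest in genes detected (2775, next 5296) and in 1100001G20Rik (1.95 TPM, next 181), Pglyrp1 (70.3 TPM, next 890.1), Neu1 (0.34 TPM, next 45.8), Igsf6 (0.31 TPM, next 719.7), Hexa (0 TPM, next 111), Elane (13150 TPM, next 27350) and Srgn (2002 TPM, next 5012). Cell 12 was highest in Ccr2 (38.9 TPM, next 1.24) and lowest in Otud6b (0 TPM, next 63.6). Cell 37 was highest in F13a1 (36.5 TPM, next 1.97) and Chil3 (174 TPM, next 3.49) and lowest in Nmd3 (0 TPM, next 129.9). Cell 29 was highest in Csf1r (57.9 TPM, next 0.52) and lowest in Ube2c (0 TPM, next 140.7). Cell 40 was highest in Mmp8 (67.4 TPM, next 0.79) and in Irf8, where 0.22 TPM stood beside 0 in the other 5 cells.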

How the results depend on the processing

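The 6 Gran-1 cells, 1 set of cells without a replicate and an unknown depth restrict every value to a description of these cells. Of 80 named genes at least 2-fold apart, among which H2-Ab1 was not counted, 77 kept their sign in all 16 alternatives. The others were Ccr2, at -0.051 in the 6 Mono cells matched on genes detected, Apoe, at 0.19 on the ratio of mean TPM, and Hexa, at -0.35 for medians over cells and -0.29 without Gran-1 cell 25. A pseudocount of 10 TPM left 565 genes at least 2-fold higher in Mono and 418 in Gran-1, since it shrinks differences between low values by construction. Leaving out each Gran-1 cell in turn gave between 1048 and 1710 genes higher in Mono and between 950 and 1494 in Gran-1, 1048 and 1494 both being without cell 25. The rule of 90% of cell pairs, which fewer cells make easier to pass, then gave between 10 and 19 genes higher in Mono and between 14 and 27 in Gran-1. With the 6 matched Mono cells, 61 genes in Mono and 34 in Gran-1 passed it, and 14 and 8 genes had no overlap. Without Mono cells 1 and 33, chosen after seeing the data, 14 genes higher in Mono passed it, and 2 genes higher in Mono and 1 higher in Gran-1 had no overlap. Of these 80 genes, those that moved by over 1.5 times without 1 Gran-1 cell have that value in the report. Named genes that were within 2-fold on the ratio of mean TPM were Camp (-0.71), Clec12a, Hdc (-0.57), Klf6 (-0.74), Hexa (0.34), Apoe, Gfi1 and Rps27 (0.93). Ccr2, Mmp8, Nop2 (-0.80) and Clec12a (-0.84) were within it in the matched Mono cells, and Gfi1, Hexa, Mmp8 and Mbnl3 (-0.98) between medians over cells. No paired analysis was possible because the states share no cell numbers and no test was made.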

Other observations

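Rps27, a protein of the small ribosomal subunit, was among the genes highest in Mono (difference 4.25), yet its values were either absent or high. Gran-1 cells 25, 37 and 40 were at 0 TPM and the other 3 held between 1319 and 1780 TPM, while Mono held 0, 1244 and 3203 TPM with 2 of 24 cells at 0. Over the series 20 of 92 cells were at 0, and 48 of 50 ribosomal protein genes were above 0 in all 30 cells compared. The 50 genes made up 11.8% of all TPM in the median Mono cell and 10.6% in the median Gran-1 cell, with a list median of 0.07. Ribosomal protein genes have many near-identical copies, so the levels of single members are uncertain.

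Genes of ER chaperones and secretory folding gave 6 of 22 at least 2-fold higher in Mono and 1 in Gran-1, with a median of 0.32. Sterol synthesis gave 2 and 3 of 11 (-0.12), glycolysis 3 and 1 of 15 (0.27), integrins with adhesion and chemotaxis 4 and 3 of 15 (0.34), the NADPH oxidase 1 and 1 of 7 (0.33), and C-type lectins with pattern receptors 2 and 4 of 12 (-0.08). The stem and multipotent progenitor list gave 1 (Cd34) and 2 of 8 (0.35), the dendritic and MHC class II list 1 and 1 of 6 (0.37), and housekeeping genes 2 and 1 of 15 (0.02). When each Gran-1 cell was left out in turn, the medians ranged from 0.02 to 0.59 for ER chaperones, -0.63 to 0.35 for sterol synthesis, -0.07 to 0.33 for glycolysis, 0.20 to 1.07 for integrins and -0.37 to 0.58 for the NADPH oxidase. They ranged from -0.76 to 0.31 for C-type lectins, 0.10 to 0.60 for the stem list, 0.05 to 0.85 for the dendritic list and -0.20 to 0.16 for housekeeping genes. Of all genes compared, 23.2% were at least 2-fold higher in Mono and 16.2% in Gran-1. With a detection filter of 25% the ER chaperone median was 0.13, against 0.16 for all genes. In the matched Mono cells the integrin median was 0.01, against 0.15 for all genes. No direction is given for any of these lists.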
